A study of Caenorhabditis elegans with 10 samples.

Results

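The genes described here encode troponin and tropomyosin, the proteins that regulate the thin filaments of Caenorhabditis elegans muscle. They are 9 of the 19971 nuclear protein-coding genes in the RefSeq annotation of the WBcel235 assembly. They were chosen by name, with earlier results of these data known. Their shares beside those of all genes describe this list and test nothing. By role they are the troponin T genes mup-2, tnt-2, tnt-3 and tnt-4, the troponin I genes tni-1, tni-3 and tni-4, the troponin C gene pat-10 and the tropomyosin gene lev-11. The troponin genes unc-27 and tnc-2 are not among the 9 and are described with the other thin filament genes. A gene was counted as having a peak when an interval of a deposited peak list overlapped its body, or the 1 kb on either side, by at least 1 bp.

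In muscle, actin thin filaments slide along myosin thick filaments. Tropomyosin lies along the actin, and the troponin complex sits on it: troponin C binds calcium, troponin I inhibits the interaction of actin with myosin, and troponin T ties the complex to tropomyosin. HPL-1 and HPL-2 are the heterochromatin protein 1 (HP1) proteins of the worm, and HP1 proteins recognise histone H3 methylated on lysine 9. Intestine and hypodermis, the tissues profiled, are not muscle tissues.

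The study used DamID-seq, in which a protein carries the bacterial DNA adenine methyltransferase Dam and leaves methylated GATC sites in the chromatin it contacts. In L4 larvae grown for 48 h at 20 °C, HPL-1 was fused to Dam in the intestine (strain MRS579), HPL-2 in the intestine (MRS580) and HPL-2 in the hypodermis (MRS578). GFP fused to Dam in the intestine (BN1051) and in the hypodermis (BN561) served as control, and both intestinal fusions share the intestinal control group. Each of the 5 groups had 2 libraries. The labels name no promoter or driver for the fusions and do not say whether the libraries came from separate cultures. Peak lists hold no expression, so the tissues could not be checked against marker genes.

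Each of the 3 deposited lists was made from an averaged profile, per its file name, so a value has no error between replicates and no test over samples was possible. A peak is a region the authors called above GFP-Dam in the same tissue. The lists do not state the scale of the authors' score, so a score is read only within its own list. The HPL-1 intestine list held 1346 peaks, the HPL-2 intestine list 1665 and the HPL-2 hypodermis list 1572. Sequencing depth is unknown.

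HPL-2 peaks lay at 7 of the 9 troponin and tropomyosin genes in intestine and at 5 in hypodermis, while HPL-1 had a peak at tni-3 only. In the HPL-2 intestine list 7 of 9 genes had a peak (mup-2, tnt-2, tnt-3, tnt-4, tni-3, pat-10 and lev-11), where 8.31% of all protein-coding genes did. In the HPL-2 hypodermis list 5 of 9 had one (tnt-2, tnt-3, tnt-4, tni-3 and lev-11), against 8.1% of all genes. At an FDR of 0.01 or below, 5 genes were left in intestine and 3 in hypodermis, against 5.71% and 5.1% of all genes. The tni-3 peaks lie over another gene, phy-3, as well. In the HPL-1 intestine list tni-3 alone of the 9 had one, against 6.93% of all genes, so that 1 of 9 lies near the background. The troponin I genes tni-1 and tni-4 had no peak in any list, as was the case for 83.0% of all protein-coding genes. The same 7, 5 and 1 genes were found when only gene bodies were searched, where 6.11%, 5.92% and 4.84% of all genes had a peak. With 2 kb on either side, tni-1 joined the HPL-2 intestine genes, giving 8 of 9 against 10.5% of all genes.

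**Figure D1:**
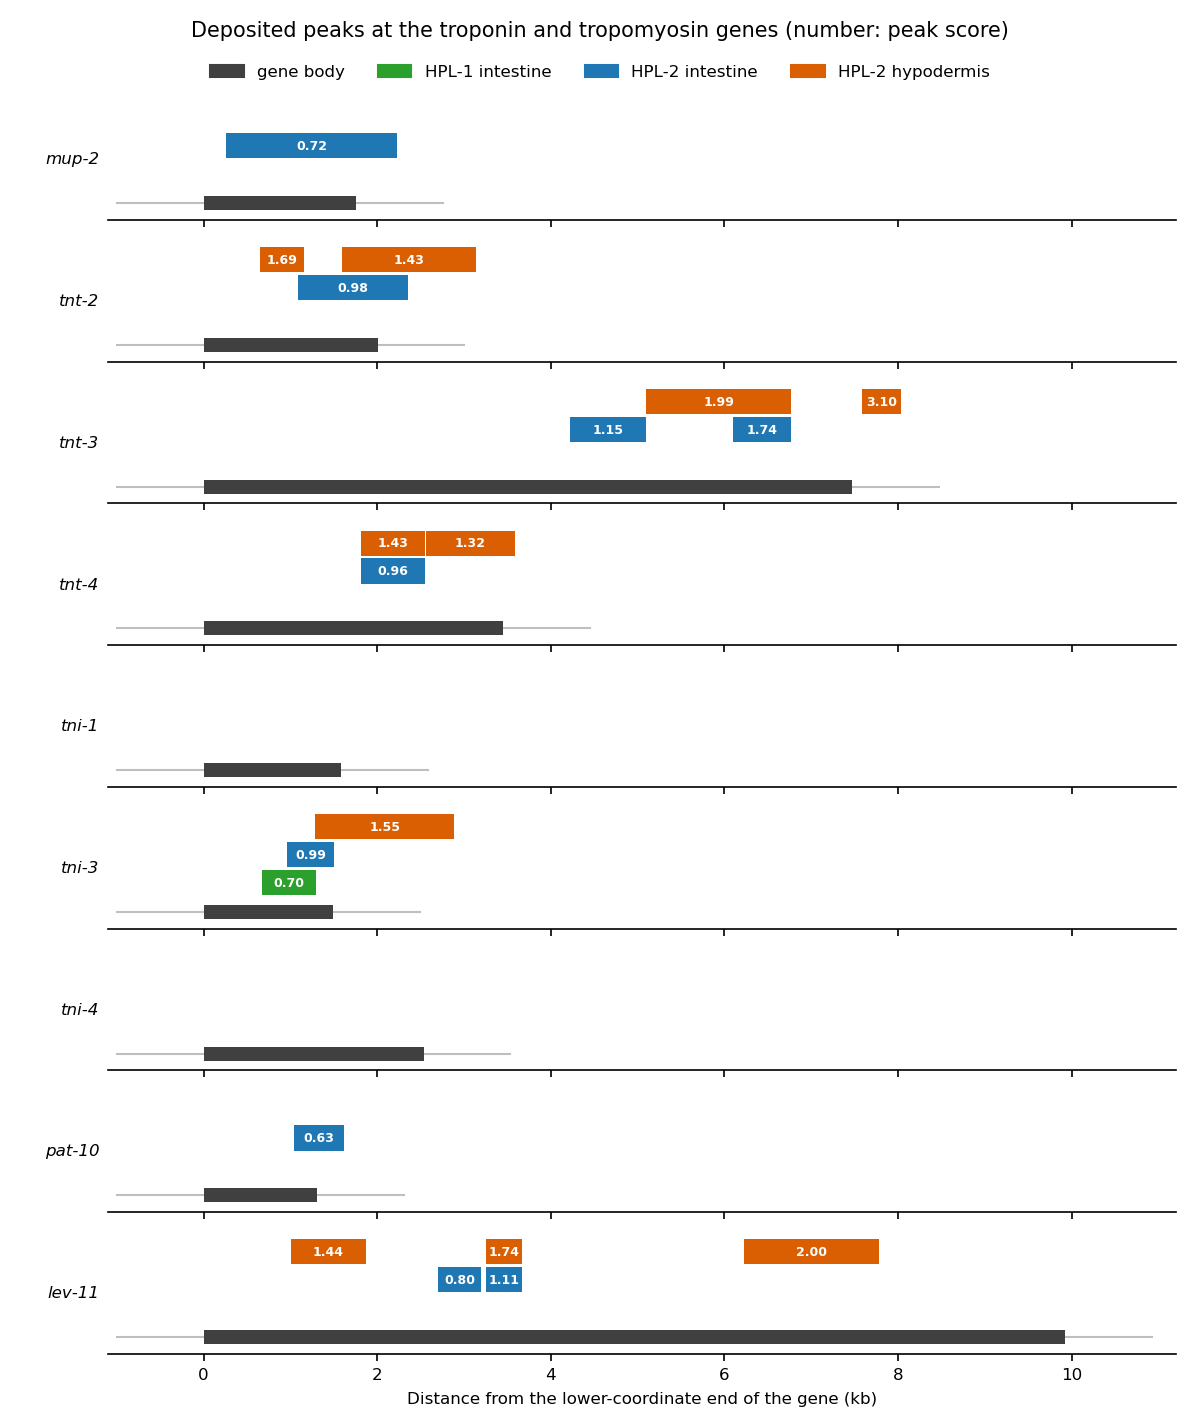
Map of the 9 genes, drawn from the lower-coordinate end of each gene body (horizontal axis, kb). Dark bars are gene bodies, thin grey lines the 1 kb flanks, and coloured bars the deposited peaks of each list with the authors' score printed on them. HPL-2 peaks lie at 7 genes in intestine and 5 in hypodermis, the only HPL-1 peak lies at tni-3, and tni-1 and tni-4 are empty.

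Counted by peaks, the 9 genes held 9 HPL-2 intestine, 10 HPL-2 hypodermis and 1 HPL-1 intestine peak. HPL-2 intestine peaks covered 15.2% of the gene windows (bodies with 1 kb on either side), where they covered 1.44% of the windows of all protein-coding genes. HPL-2 hypodermis peaks covered 19.9% of the windows, against 1.75% for all genes. HPL-1 intestine peaks covered 1.24%, against 0.932%. The gene bodies ranged from 1304 to 9926 bp, with a median of 2005 bp, and the median of all protein-coding genes was 2006 bp. Longer genes were more often under a peak in the whole annotation: 10.6% of the genes above the median length had an HPL-2 intestine peak and 5.97% of the others, and for HPL-2 hypodermis the shares were 9.83% and 6.37%. Among the 5 troponin genes at or below that length, 4 had an HPL-2 intestine peak and 2 an HPL-2 hypodermis peak.

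All 4 troponin T genes had an HPL-2 peak in intestine, and tnt-2, tnt-3 and tnt-4 had one in hypodermis as well. The gene tnt-3, a troponin T with 6 annotated transcripts, spans 7467 bp of chromosome X (7937633 to 7945099). In intestine, HPL-2 had peaks at 7941854 to 7942729 with a score of 1.15 and at 7943733 to 7944401 with a score of 1.74. The second ranked 67 of 1665 in its list (FDR 2.72e-06). Both lay on the higher-coordinate side of the gene's midpoint and together covered 20.7% of its body.

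In hypodermis, HPL-2 had a peak of 1673 bp inside tnt-3 at 7942729 to 7944401, with a score of 1.99 (rank 354 of 1572) and an FDR of 4.96e-10. It began at the coordinate where the first intestinal peak ended and ended where the second one ended. It therefore contained the second intestinal peak whole and touched the first at 1 bp. A further hypodermis peak of 452 bp at 7945213 to 7945664 lay outside the gene, 114 bp beyond its higher-coordinate end. Its score of 3.1 ranked 10 of 1572, with an FDR of 0.000936. That peak also covers the whole 140 bp of the ncRNA gene C14F5.7, so it cannot be assigned to tnt-3 alone. The nearest HPL-1 peak lay 79.4 kb from tnt-3.

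The gene tnt-2, another troponin T (X, 8721546 to 8723550, 2005 bp), was also under HPL-2 peaks in both tissues. The intestinal peak (8722639 to 8723900) scored 0.98 and covered 45.5% of the body. In hypodermis, 2 peaks, at 8722200 to 8722704 (score 1.69) and 8723146 to 8724688 (score 1.43), covered 45.4%. The share of the body was thus nearly equal, but the intestinal peak lay across the gap between the hypodermis peaks and shared 821 bp with them, 65.1% of its own width and 40.1% of theirs. The second hypodermis peak reached past the gene over the ncRNA gene F53A9.11.

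The gene tnt-4 (V, 1989471 to 1992918, 3448 bp), which encodes the troponin T of the pharynx, carried the same HPL-2 interval in both tissues. The peak at 1991288 to 1992019 was identical to the base pair in both lists, with a score of 0.96 in intestine and of 1.43 in hypodermis. A second hypodermis peak followed at 1992036 to 1993055 (score 1.32) and brought the covered share of the body from the 21.2% seen in intestine to 46.8%. The 3 tnt-4 peaks had FDRs of 0.0123, 0.0236 and 0.0352, so that none is left at an FDR of 0.01 or below.

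The gene mup-2 (X, 6408471 to 6410227, 1757 bp), a troponin T that embryos need to contract and position their muscles, had a peak in the HPL-2 intestine list only. This peak at 6408732 to 6410695 was the widest of all those at the 9 genes, 1964 bp, and covered 85.1% of the body. Its score of 0.72 was low in its list (rank 1367 of 1665), while its FDR was 7.68e-06. The nearest HPL-2 hypodermis peak lay 182.0 kb away and the nearest HPL-1 peak 80.6 kb away. The peak also covered the ncRNA gene T22E5.10 beyond the end of mup-2.

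**Figure D2:**
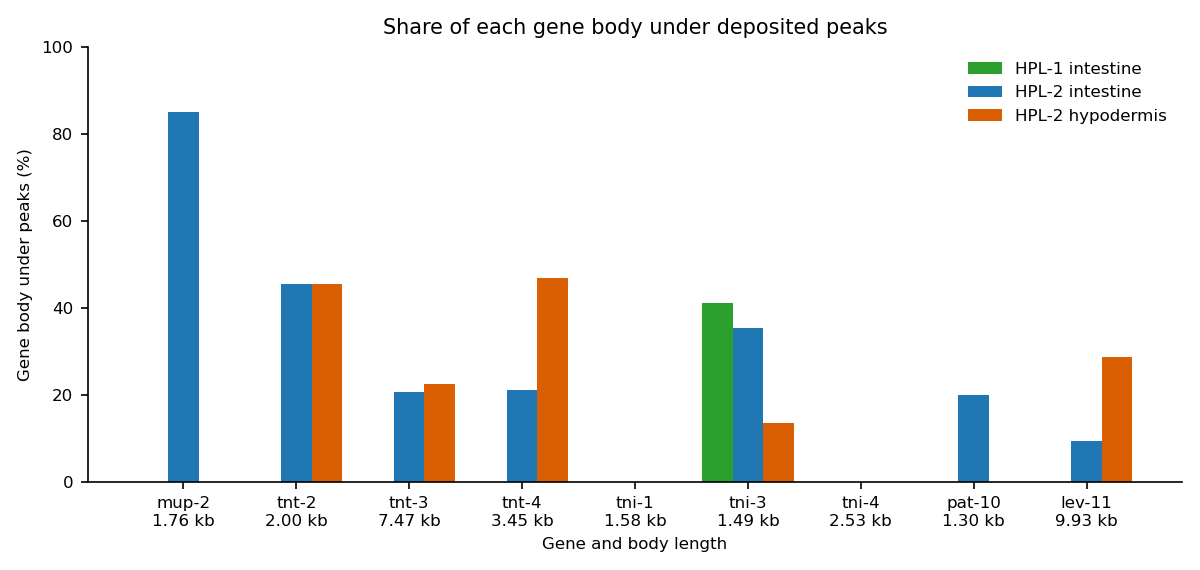
Bars give the share of each gene body (vertical axis, %) under the peaks of each list, with genes ordered by role and labelled with their body length. The intestinal HPL-2 share reaches 85.1% at mup-2, the shares in intestine and hypodermis are close at tnt-2 and tnt-3, and the hypodermis share is the larger at tnt-4 and lev-11.

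Among the troponin I genes, which encode the inhibitory subunit, only tni-3 had peaks, and it had them in all 3 lists. The gene tni-3 (V, 16833638 to 16835128, 1491 bp) had an HPL-1 intestine peak at 16834313 to 16834927 with a score of 0.7 (rank 567 of 1346, FDR 0.000205). The HPL-2 intestine peak at 16834602 to 16835141 scored 0.99 (rank 747 of 1665). The HPL-2 hypodermis peak at 16834927 to 16836522 scored 1.55 (rank 951 of 1572). The peaks were staggered toward higher coordinates in this order: HPL-1 and HPL-2 in intestine shared 326 bp, and the HPL-2 peaks of the tissues shared 215 bp. The HPL-1 and hypodermis peaks shared 1 bp, the edge at which one ends and the other begins.

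All of tni-3 lies within the body of phy-3, a gene for a catalytic subunit of prolyl 4-hydroxylase that spans 5968 bp (16833174 to 16839141). Each tni-3 peak lay wholly over phy-3 as well, and of the hypodermis peak 12.7% was over tni-3. The peaks cannot be assigned to one of these genes. With peaks over another protein-coding gene left out, an alternative chosen after the values had been seen, no troponin or tropomyosin gene had an HPL-1 peak, and the counts were 6 for HPL-2 in intestine and 4 in hypodermis. Under the same rule 4.68% of all genes had an HPL-1 peak, 5.48% an HPL-2 intestine peak and 5.0% an HPL-2 hypodermis peak.

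The gene tni-1 (X, 11375887 to 11377470) had no peak in its window, and the nearest HPL-2 intestine peak, with a score of 0.81, began 1.9 kb beyond the gene. The nearest HPL-1 and HPL-2 hypodermis peaks were 142.0 kb and 299.0 kb away. The pharyngeal troponin I gene tni-4 (IV, 5204591 to 5207124) was far from all peaks: the nearest lay 187.0 kb away for HPL-2 in intestine, 251.0 kb for HPL-1 and 435.0 kb for HPL-2 in hypodermis. An absent peak says only that the averaged profile did not pass the authors' threshold there.

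The gene pat-10 (I, 5018783 to 5020086, 1304 bp), which encodes the calcium-binding troponin C of body wall muscle, had an HPL-2 intestine peak only. The peak at 5019827 to 5020398 lay across the higher-coordinate end of the gene, with 260 of its 572 bp over the body. Its score of 0.63 ranked 1580 of 1665, the lowest of the peaks at the 9 genes in that list. The nearest HPL-1 peak was 11.3 kb away and the nearest HPL-2 hypodermis peak 83.0 kb away.

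The tropomyosin gene lev-11 (I, 14621169 to 14631094) is the longest of the 9 at 9926 bp and has 19 annotated transcripts, since alternative promoters and splicing give body wall, pharyngeal and other isoforms. HPL-2 had 2 intestinal peaks there, at 14623866 to 14624366 (score 0.8) and at 14624419 to 14624837 (score 1.11). In hypodermis it had 3, at 14622177 to 14623038 (score 1.44), at 14624419 to 14624837 (score 1.74) and at 14627389 to 14628949 (score 2.0, rank 344 of 1572, FDR 2.33e-05). The middle hypodermis peak (FDR 0.0137) was identical to the second intestinal one (FDR 0.0123), and neither is left at an FDR of 0.01 or below. The hypodermis peaks were spread over the gene from 10.2% to 78.4% of its length and covered 28.6% of the body, and the intestinal peaks lay between 27.2% and 37.0% and covered 9.27%. The annotation used here has no exons, so the peaks could not be set against the isoforms.

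**Figure D3:**
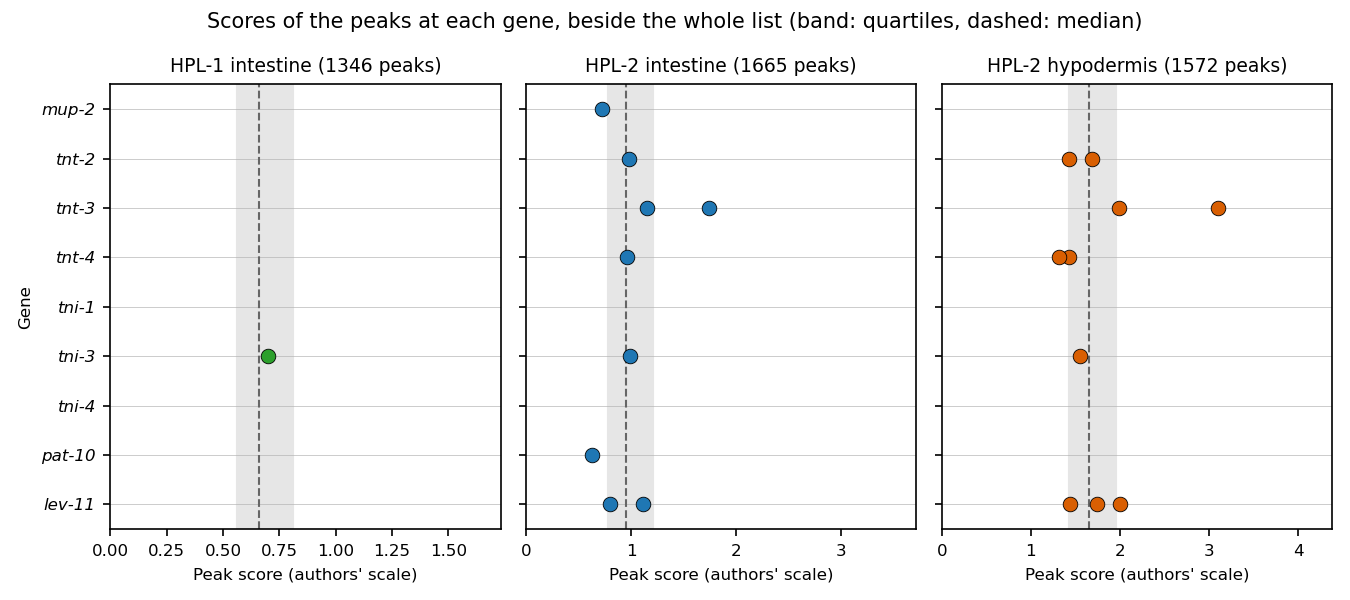
Score of each peak at the 9 genes (points) by gene, in a panel for each list with its own horizontal axis. The shaded band spans the quartiles of all scores in the list and the dashed line marks their median. The highest points are those of tnt-3, with 1.74 in HPL-2 intestine and, for the peak beside the gene, 3.1 in HPL-2 hypodermis, and pat-10 and mup-2 lie lowest in HPL-2 intestine.

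The scores at these genes lay on both sides of the median of their lists. In HPL-2 intestine their scores ran from 0.63 to 1.74 with a median of 0.98, where the whole list had a median of 0.95, and 6 of 9 were above it. The peaks of pat-10 and mup-2 were below the lower quartile of that list, 0.78, and the second peak of tnt-3 was above the upper quartile, 1.21. In HPL-2 hypodermis they ran from 1.32 to 3.1 with a median of 1.62, where the list median was 1.65, and 5 of 10 were above it. The second tnt-4 peak was below the lower quartile there, 1.43, and both tnt-3 peaks and the peak of lev-11 with a score of 2.0 were above the upper quartile, 1.95. Over gene bodies alone, the highest hypodermis scores were 2.0 at lev-11 and 1.99 at tnt-3. Median widths were 669 bp in intestine and 941 bp in hypodermis, close to the list medians of 678 and 948 bp. Of the 20 peaks, 12 lay wholly inside a gene body, 7 crossed an edge of a body and 1, beside tnt-3, lay in a flank.

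Within the intestine, HPL-2 and HPL-1 both had a peak at tni-3, HPL-2 alone at 6 genes and HPL-1 alone at 0. Of all protein-coding genes, 2.35% had peaks of both, 5.95% of HPL-2 alone and 4.58% of HPL-1 alone. Between tissues, HPL-2 had peaks in both at 5 genes (2.94% of all genes), in intestine alone at mup-2 and pat-10 (5.36%) and in hypodermis alone at 0 (5.16%). Across the intestinal HPL-1 list and the hypodermal HPL-2 list, both had a peak at tni-3 (2.35% of all genes), HPL-2 alone at 4 genes (5.75%) and HPL-1 alone at 0 (4.58%). With a single averaged list on each side, none of these differences could be tested. The intestinal peaks of mup-2 and pat-10 rank low by score: when each list was restricted to its 1346 highest scoring peaks, both were lost and the same 5 genes remained in each tissue, against 6.82% of all genes in intestine and 7.1% in hypodermis. No gene of the 9 was then in the HPL-2 intestine list alone, where 4.33% of all genes were. At an FDR of 0.01 or below, 5 genes were left for HPL-2 in intestine (mup-2, tnt-2, tnt-3, tni-3 and pat-10) and 3 in hypodermis (tnt-2, tnt-3 and lev-11), where 5.71% and 5.1% of all genes were left. HPL-2 peaks of both tissues were then left at tnt-2 and tnt-3 (1.85% of all genes) and in hypodermis alone at lev-11 (3.25%). The HPL-1 peak at tni-3 was also left, against 3.87% of all genes. It then stood without a hypodermis peak, as at 2.64% of all genes, and 0 of the 9 had both of these, against 1.23%.

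Having peaks in the same gene did not mean the same stretch. At the 5 genes with HPL-2 peaks in both tissues, 2857 bp were shared, 57.2% of the intestinal and 27.6% of the hypodermis peak sequence. Between peaks with an FDR of 0.01 or below, only 66 bp at tnt-2 and 670 bp at tnt-3 were shared. Identical intervals occurred at tnt-4 and lev-11, with FDRs above 0.01 in both tissues. Over the whole HPL-2 lists 104 intervals were identical, 6.25% of all intestine peaks, most of which overlap no hypodermis peak. There were 507 overlapping pairs. At tnt-3 and tni-3 peaks of different lists met at 1 bp. Over the whole lists, 33 of 507 overlapping pairs of HPL-2 peaks from the different tissues shared only 1 bp, and 20 of 387 pairs of HPL-1 and HPL-2 hypodermis peaks did. Edges in this assay follow GATC fragments, whose positions were not used here.

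The peak midpoints lay toward the higher-coordinate end at most of these genes. Of the 20 peaks, 15 had their midpoint on the higher-coordinate side of the gene's midpoint, including every peak of mup-2, tnt-3, tnt-4, tni-3 and pat-10. The exceptions were 1 hypodermis peak of tnt-2 and 4 of the 5 peaks of lev-11. Over all protein-coding genes the share was 50.7% in HPL-2 intestine and 49.7% in HPL-2 hypodermis. The 20 peaks lie at 7 genes, and some repeat or overlap between lists, so they are not independent. By gene, all peaks lay on that side at 5 of the 7, and this was not tested. The annotation gives no strand, so the higher-coordinate ends could not be named as starts or ends of transcription.

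By chromosome, mup-2, tnt-2, tnt-3 and tni-1 lie in the middle part of X, after division of each chromosome into 3 equal parts, where peaks were sparse. Of the 977 protein-coding genes there, 4.4% had an HPL-2 intestine peak and 3.07% an HPL-2 hypodermis peak. Of the 4 genes, mup-2, tnt-2 and tnt-3 had the first, and tnt-2 and tnt-3 the second. The other genes lie in the outer parts: tnt-4 at 9.52%, tni-3 at 80.5% and tni-4 at 29.8% of the length of their chromosomes, lev-11 at 97.0% of chromosome I, and pat-10 at 33.3%, at the boundary. In the outer parts 11.6% of all genes had an HPL-2 intestine peak and 11.4% an HPL-2 hypodermis peak. In the middle parts of all chromosomes together the shares were 2.84% and 2.62%, so sparse peaks there were not particular to X.

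A smaller share of the other thin filament genes than of the 9 had an HPL-2 peak. Of 19 such genes, 3 had an HPL-2 intestine peak (15.8%), 4 an HPL-2 hypodermis peak (21.1%) and 1 an HPL-1 peak (5.26%). Of all protein-coding genes, 8.31%, 8.1% and 6.93% had one. The HPL-2 shares were thus above those of all genes, and 1 of 19 for HPL-1 lies near the background. The remaining troponin genes split: unc-27, a further troponin I of body wall muscle, had a hypodermis peak only (score 1.97), across its lower-coordinate end, and tnc-2, the pharyngeal troponin C, had none. Among the actin genes, the muscle actin gene act-4 had an HPL-2 intestine peak of 1507 bp with a score of 1.5, and act-5, the actin of intestinal microvilli, one of 122 bp with a score of 0.63. The actin genes act-1, act-2 and act-3 had none in their windows, and the nearest HPL-1 peak lay 1.65 kb from act-1. Their sequences are near-identical. Whether similar sequence affected how reads were placed at the actin genes was not tested.

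Among the calponin-related genes, unc-87 (score 1.41) and cpn-3 (1.93) had HPL-2 hypodermis peaks only. The gene clik-1 had the same interval of 889 bp in the HPL-1 (score 0.54) and HPL-2 intestine lists (score 1.7, rank 76 of 1665). Its hypodermis peak (score 2.0) lay in the flank, 722 bp from the gene. None of the 6 genes for actin regulators in the list (unc-94, tmd-2, unc-60, unc-78, cap-1 and cap-2) had a peak. This lies near the background, since 83.0% of all protein-coding genes had no peak in any list. All told, 13 of 19 had none in any list, against 2 of the 9 troponin and tropomyosin genes and 83.0% of all protein-coding genes. The 19 include the troponin genes unc-27 and tnc-2 and the microvillar actin gene act-5, so the sets are not troponins against other muscle genes. The difference between the 19 and the 9 genes was not tested.

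The thick filament genes, for myosins, their light chains and paramyosin, gave counts near those of the troponin and tropomyosin genes. Of 8, 6 had an HPL-2 intestine peak, 5 an HPL-2 hypodermis peak and 1 an HPL-1 peak. Of all protein-coding genes, 8.31%, 8.1% and 6.93% had one, so 1 of 8 for HPL-1 lies near the background. The bodies of unc-54, myo-1, myo-2, myo-3 and unc-15 span 6594 to 8112 bp, where the median of the 9 genes is 2005 bp. Longer genes more often had a peak, and the part of length in these counts was not tested. The combination of lists found at tni-3, all 3 of them, occurred at 259 protein-coding genes (1.3%), among them clik-1 and the body wall myosin gene unc-54. The combination found at tnt-2, tnt-3, tnt-4 and lev-11, both HPL-2 lists without HPL-1, occurred at 329 genes (1.65%), among them myo-1, myo-2, unc-15 and mlc-2.

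**Figure D4:**
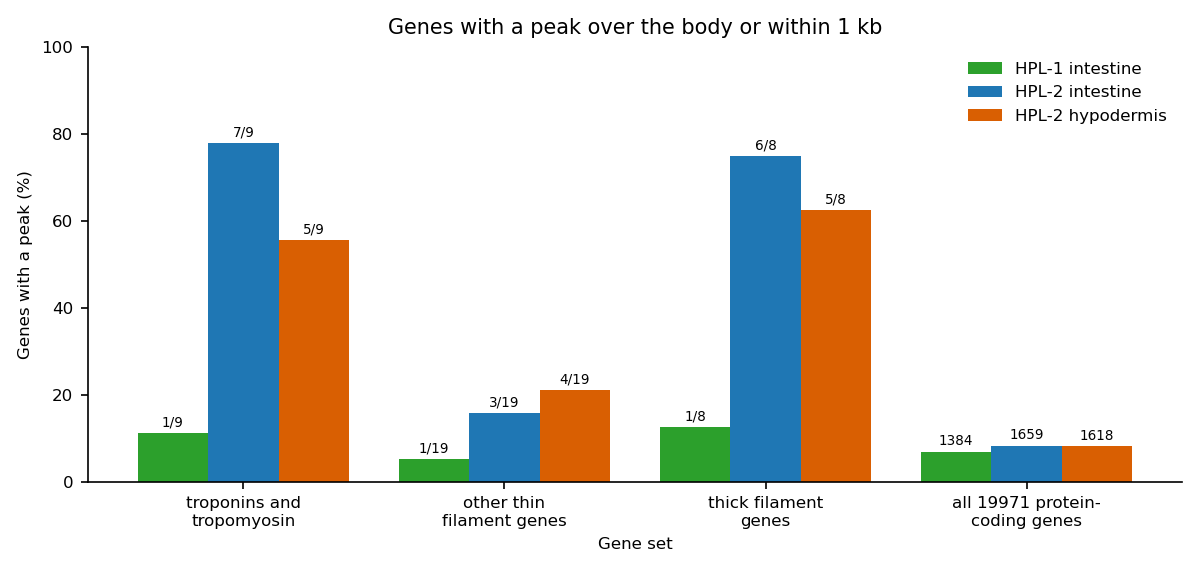
Share of genes with a peak over the body or within 1 kb (vertical axis, %) in each list, for the 9 troponin and tropomyosin genes, 19 other thin filament genes, 8 thick filament genes and all 19971 protein-coding genes. Numbers above the bars are genes with a peak. The HPL-2 bars of the troponin and tropomyosin genes stand at 77.8% and 55.6%, beside 8.31% and 8.1% for all genes.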

How the data were processed

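The series holds 10 DamID-seq libraries in 5 groups of 2, taken from the sample titles. The authors deposited 1 peak list for each HPL fusion and tissue, whose file names give an average against Dam and an FDR of 0.05. The score of each peak, and its FDR, were computed by the authors before they were deposited, on a scale not stated. Other deposited values are the chromosome, start and end of each peak. Bowtie2 2.3.4, SAMtools 1.9, R 3.4.3 and the WBcel235/ce11 assembly are named in the submitters' processing notes. The peak caller and the number of averaged libraries were named in no source used here. GFP-Dam enters only through the authors' comparison.

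Genes were matched by symbol to RefSeq coordinates of WBcel235 (9 of 9 found), leaving out 12 mitochondrial protein-coding genes. Overlaps and coverage were computed with Python 3.11.15, pandas 2.3.3 and numpy 2.4.6, and the code was tested on simulated intervals. No test was run, since each group is 1 averaged list. The 3 equal parts of each chromosome were set by the furthest gene or peak end. The text names all 9 genes, other genes under their peaks and the thin filament genes with a peak; thick filament genes are named where they share a combination of lists with the troponin and tropomyosin genes. Genes and lists were chosen with earlier results of these data known. Alternatives were the window, the FDR, the overlap and lists of equal size. No sequences were used here.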

Additional observations from a re-analysis of the deposited data

How the results depend on the processing

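Of 89 values recomputed under the alternatives, 77 kept the reported value or stayed within 1.5 times the reported count, 8 moved further and 4 could not be computed. Some could not change, such as the HPL-1 count with lists of equal size, since that list holds 1346 peaks. The falls from 7 to 5 HPL-2 intestine genes are among the 77. At an FDR of 0.01 or below, the genes with an HPL-2 hypodermis peak fell from 5 to 3 (5.1% of all genes). Those with HPL-2 peaks in both tissues fell from 5 to 2 (1.85%), and those with HPL-2 in hypodermis only went from 0 to 1 (lev-11, 3.25%). At the same FDR, tni-3 lost its hypodermis peak. Then 0 genes had both HPL-1 and HPL-2 hypodermis peaks (1.23% of all genes) and 1 had HPL-1 only (2.64%). The highest scores of tnt-4 in both tissues, tni-3 in hypodermis and lev-11 in intestine could not be given at that FDR, since no peak was left. With lists of equal size, 0 genes had HPL-2 in intestine only (4.33% of all genes). With peaks over another protein-coding gene left out, 0 genes had an HPL-1 peak (4.68% of all genes). With gene bodies only, the highest tnt-3 score in hypodermis was 1.99. These follow from the peaks each alternative removes. With 2 kb flanks tni-1 joined the HPL-2 intestine genes, giving 8. No paired analysis was possible because each deposited list averages its libraries, and for the same reason no replicate could be left out. Depth limits could not be assessed from peak lists.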

Other observations

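HPL-2 intestine peaks covered 1.44% of the windows of all protein-coding genes, HPL-2 hypodermis peaks 1.75% and HPL-1 peaks 0.932%. In the windows of the 8 thick filament genes the shares were 26.6%, 15.2% and 9.47%. All HPL-1 sequence in these windows came from 4 peaks at unc-54, the major myosin heavy chain of body wall muscle, which scored from 0.9 to 1.65, the latter being the highest score in the HPL-1 list. Of the other myosin heavy chain genes, myo-3 had 3 HPL-2 intestine peaks (scores 0.87, 0.94 and 1.17) and no peak in the other lists. This combination, also seen at mup-2 and pat-10, occurred at 860 protein-coding genes (4.31%).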
